A study of Danio rerio with 34 samples.

Results

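The regions described here are 500 bp tiles of the zebrafish genome (GRCz11) that were called as differentially methylated regions (DMRs) at HSPC generation and not at the stage before it. HSPCs are the hematopoietic stem and progenitor cells, which arise from endothelial cells (ECs) by way of hemogenic endothelial cells (HECs). The tiles, called generation-only here, were in the list of DMRs of sibling HECs against sibling HSPCs and absent from that of sibling ECs against HECs. There were 3223 of them among the 3429 tiles of the HEC and HSPC comparison (94.0%). The other 206 tiles were also in the EC and HEC comparison, which held 942 further tiles that were called at hematopoietic specification only (specification-only tiles). A tile absent from a list may still have differed without passing the thresholds of the call. All deposited lists together held 373165 different tiles. The tiles were chosen by the methylation calls of these sibling comparisons, so their number is a description and carries no test.

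Whole genome bisulfite sequencing (WGBS) covered 18 samples, with 3 samples of each cell type in siblings and in dnmt1 mutants (the s872 line). The cells came from the trunk, labelled as the AGM region, of Tg(kdrl:mCherry/runx1:en-GFP) embryos at 36 h post fertilization (hpf). Every group thus carried both reporters, mCherry driven by the endothelial gene kdrl and GFP driven by a runx1 enhancer, and the cell types were separated by flow cytometry on them. Each WGBS sample held 500 sorted cells by the methods, whereas the protocol in the labels speaks of single cells, and no source states whether samples came from separate clutches. Siblings are clutch mates used as controls, and their own dnmt1 alleles were not given beyond that label.

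During the endothelial-to-hematopoietic transition (EHT), cells of the ventral wall of the dorsal aorta first acquire a hemogenic identity and then leave the wall as HSPCs. Methylation of cytosines in CpG sites is copied onto the new DNA strand after replication by Dnmt1, so a cell that divides without Dnmt1 loses methylation passively. In WGBS, bisulfite converts unmethylated cytosines so that they are read as thymines, and the share of cytosines that remain gives the methylation level of a tile.

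A tile was called a DMR when the methylation levels of the compared groups differed by more than 0.2, at a P-value under 0.05 after Benjamini-Hochberg adjustment. The lists give the chromosome, start and end of each called tile. They hold no methylation level, direction of change, coverage or value per sample, so neither the gain or loss of methylation, the depth, the replicate error nor the tiles just inside and outside the threshold could be given. The coordinates are those of GRCz11. No genome of that build was used here, so the genes, exons or promoters that the tiles lie in were not analysed.

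The sort labels were checked in the RNA-seq libraries of the same kind of sort, which were other samples than those of WGBS. These were 6 libraries of ECs, 6 of HECs and 4 of HSPCs, with 3125048 to 13201410 counts on genes, and levels are given as counts per 1000000 of these (CPM). Both genotypes were pooled because 2 fields of the labels name opposite genotypes for the same RNA-seq library, whereas the cell type is the same in both fields. The summed level of 5 endothelial markers (kdrl, cdh5, tie1, fli1a and pecam1, which encode receptors, junction proteins and an ETS factor of vessels) was 1739 to 3343 CPM in ECs, 807 to 1313 in HECs and 13.8 to 34.5 in HSPCs. All HSPC libraries were below all HEC libraries for 5 of 5 of these genes, and tie1 had no count in 4 of 4 HSPC libraries, which allows up to 0.227 to 0.783 CPM (3 counts, counting error only).

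The markers of blood progenitors went against the HSPC label in part. The summed level of runx1, myb, gata2b, gfi1aa and lmo2, which encode transcriptional regulators of HSPC emergence, was 280 to 575 CPM in ECs, 428 to 832 in HECs and 260 to 339 in HSPCs. In every library lmo2 was the largest part of this sum. It was the 1 gene of these whose HEC and HSPC libraries overlapped, at 207 to 515 CPM in HECs and 211 to 306 in HSPCs. For the other 4 of these 5 genes every HSPC library was below every HEC library, and gata2b, which acts upstream of runx1 in zebrafish, was at 20.1 to 103 CPM in HECs and 0 to 2.23 in HSPCs. The level of runx1, the regulator that EHT depends on, was 15.7 to 76.4 CPM in HECs and 1.30 to 12.4 in HSPCs. This separation was within counting error, with 73 counts in the lowest HEC library and 50 counts in the highest HSPC library. The level of myb was 59.7 to 136 CPM in HECs and 11.4 to 15.98 in HSPCs. The sum of the leukocyte markers coro1a, ptprc and spi1b was 167 to 1131 CPM in HECs and 30.5 to 291 in HSPCs, and 0 of 3 of them were separated.

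Markers of other cell types were higher in the libraries labelled HSPC. For 3 of 3 erythroid markers (gata1a, hbae3 and alas2) all HSPC libraries were above all HEC libraries, with sums of 0 to 779 CPM in ECs, 903 to 5804 in HECs and 9096 to 61344 in HSPCs, nearly all of it from the embryonic globin gene hbae3. For alas2 the separation was within counting error, with 3 counts (0.742 CPM) in the lowest HSPC library and 2 counts (0.535 CPM) in the highest HEC library. The separation of gata1a was within counting error too, at 15 counts (3.71 CPM) and 11 counts (2.94 CPM) in these libraries. All HSPC libraries were also above all HEC libraries for 2 of 2 neural markers (elavl3 and neurod1). Their sums were 0 to 251 CPM in ECs, 0 to 153 in HECs and 165 to 647 in HSPCs. For elavl3 the separation was within counting error, with 624 counts (163 CPM) in the lowest HSPC library and 571 counts (153 CPM) in the highest HEC library. The muscle markers myod1 and acta1b summed to 0 to 60.5 CPM in ECs, 1.05 to 332 in HECs and 0.522 to 2216 in HSPCs. For both muscle markers the HSPC libraries stood apart by replicate number, as they did for some other markers. The level of hbae3 was 61330 and 22043 CPM in replicate 2 and 11769 and 9086 in replicate 3. That of spi1b was 27.7 and 28.7 CPM against 207 and 110. For ptprc they did not stand apart, at 2.09 and 36.6 CPM against 70.7 and 31.7. Replicate 3 was also deeper, with 11979546 and 13201410 counts on genes against 3832048 and 4040985. For acta1b, a skeletal muscle actin gene, the 2 libraries of replicate 3 had 2116 and 1158 CPM and those of replicate 2 had 0.522 and 21.0, and for myod1, a myogenic factor, they had 99.3 and 69.5 against 0 and 1.48. The part of such cells in the generation-only tiles was not tested, since RNA-seq and WGBS were made from different samples.

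**Figure D1:**
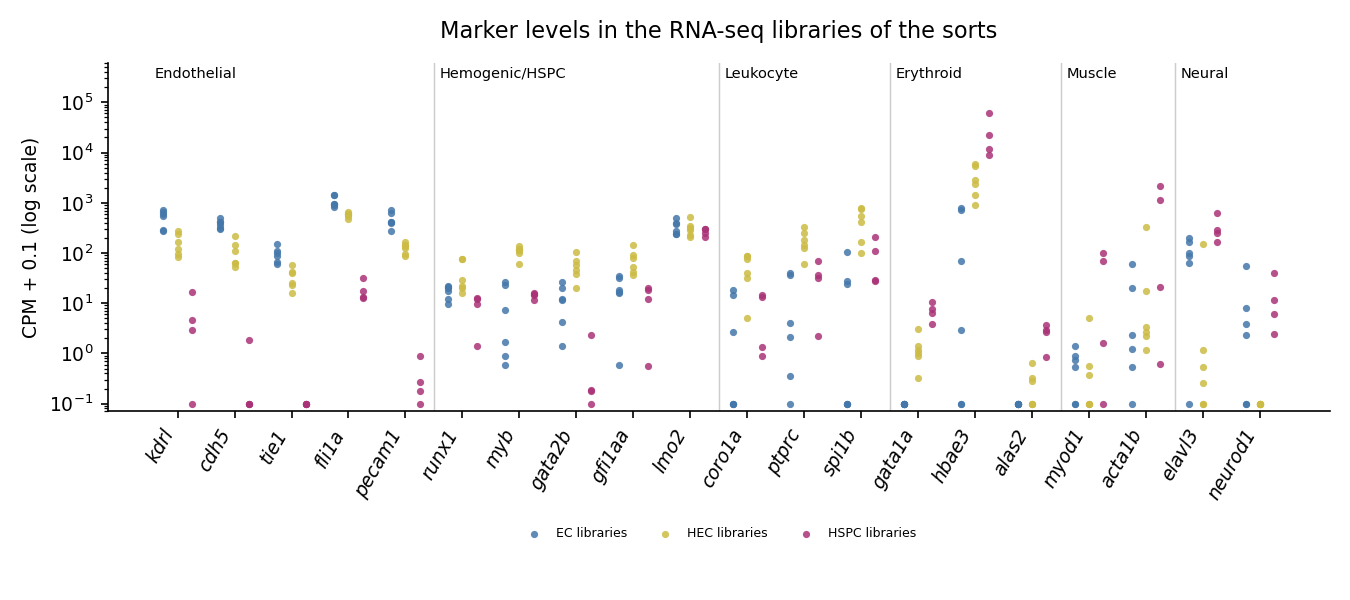
Level of each marker gene (CPM + 0.1, log scale) in every RNA-seq library, by cell type (colour), with both genotypes as points of 1 kind. Endothelial genes were lowest in the 4 HSPC libraries, and the globin gene hbae3 reached 9086 to 61330 CPM there.

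Of the generation-only tiles, 3066 (95.1%) were on the 25 chromosomes, 96 on 89 alternate loci and 61 on 55 unplaced scaffolds. They occurred on every chromosome. The tiles of the HEC and HSPC list made up 0.121% of the 2689969 tiles that the chromosomes span up to the last tile of any list, and those of the EC and HEC list 0.0395%. How many of these tiles had enough reads to be compared is not given in the sources used here, so this is a share of the genome and not of the tiles tested.

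A list of HSPC-specific DMRs, whose definition the sources used here do not state, held 1106 of the generation-only tiles (34.3%), against 0.0418% of all tiles. These were 98.3% of that list, and all of them were on chromosomes, where they made up 36.1% of the generation-only tiles. The other 19 tiles of that list (1.69%) were in both sibling lists, so it lay wholly within the HEC and HSPC list. The lists of EC-specific and HEC-specific DMRs held 0.00915% and 0.00639% of all tiles. Of the EC-specific list, 226 tiles (91.9%) were specification-only and 20 (8.13%) in both sibling lists, as were all 172 HEC-specific tiles. The rule leaves out tiles of the EC and HEC list, so no generation-only tile could be in either. The HSPC-specific list rests on the same sibling samples, so its overlap is a description too. It splits the generation-only tiles on chromosomes into 1106 HSPC-specific and 1960 other tiles. The share of HSPC-specific tiles ranged from 27.4% on chromosome 4 to 45.5% on chromosome 23.

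Each generation-only tile was then looked up in the lists of DMRs between siblings and dnmt1 mutants, which ask where methylation differs in ECs, HECs or HSPCs when Dnmt1 is lost. The HSPC mutant list held 1107 generation-only tiles (34.3%), against 7.84% of all tiles of the chromosomes. In the HEC mutant list there were 847 (26.3%), against 4.17%, and in the EC mutant list 508 (15.8%), against 4.69%. These counts include the 157 tiles off the chromosomes, and for those on chromosomes the shares were 34.8%, 26.2% and 16.05%. On each of the 25 chromosomes all 3 shares were above that chromosome's own share of listed tiles. By chromosome the shares ran from 21.7% to 43.0% for HSPCs, 16.8% to 37.5% for HECs and 8.49% to 21.6% for ECs. The lists are far larger than the set described here, so the generation-only tiles took up 0.499% of that for HSPCs, 0.718% of that for HECs and 0.383% of that for ECs.

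These lists do not use independent samples. The HSPC mutant list compares the mutants with the 3 sibling HSPC samples, and the HEC mutant list with the 3 sibling HEC samples, that also chose the generation-only tiles. The EC mutant list shares neither group, but its sibling EC samples entered the exclusion of tiles that were called between ECs and HECs. The lists alone do not give how much of an overlap comes from a shared sample, and no overlap was tested. The EC mutant list is the one without samples of the HEC and HSPC comparison. There the generation-only tiles were listed 3.36 times as often as all tiles of the chromosomes (3.42 times for those on chromosomes). The matching value for specification-only tiles is that of the HSPC mutant list, which shares no samples with the EC and HEC comparison. Its sibling HSPC samples likewise entered the exclusion of tiles that were called between HECs and HSPCs. The value was 3.195 times (3.23 times for those on chromosomes). All tiles of the chromosomes can include tiles with too few reads or CpG sites to be compared, whose number is not given. Each generation-only tile, in contrast, had been called in a comparison. How much of the ratios to all tiles, here and below, comes from this was not tested.

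Beside the specification-only tiles, the generation-only tiles were in the mutant lists in another proportion. Of the 942 specification-only tiles, 273 (29.0%) were in the EC mutant list, 304 (32.3%) in the HEC list and 236 (25.1%) in the HSPC list. Generation-only tiles thus had the lower share in ECs on 23 of 25 chromosomes and in HECs on 20 of 25, and the higher share in HSPCs on 23 of 25. For both sets the higher shares were in the lists of the cell types that their own comparison used. The 206 tiles that were called at both stages had 33.5%, 35.0% and 39.3% in the EC, HEC and HSPC lists.

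HSPC-specific and other generation-only tiles differed in which mutant list held them. In the HSPC mutant list there were 464 of the 1106 HSPC-specific tiles (42.0%) and 604 of the 1960 others (30.8%), and the HSPC-specific share was the higher on 21 of 25 chromosomes. The HEC mutant list held 232 HSPC-specific tiles (21.0%) and 572 others (29.2%), with the HSPC-specific share higher on only 4 of 25 chromosomes. The EC mutant list held 223 HSPC-specific tiles (20.2%) and 269 others (13.7%), and the HSPC-specific share was higher on 20 of 25. The 157 generation-only tiles off the chromosomes had 10.2%, 27.4% and 24.8% in the EC, HEC and HSPC lists. Chromosomes are not replicates of the experiment, and these counts of chromosomes describe 1 set of calls. The split itself rests on sibling samples that the mutant lists also use, and whether sibling ECs entered it is not stated. These differences and the choice of the split by those samples cannot be told apart.

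**Figure D2:**
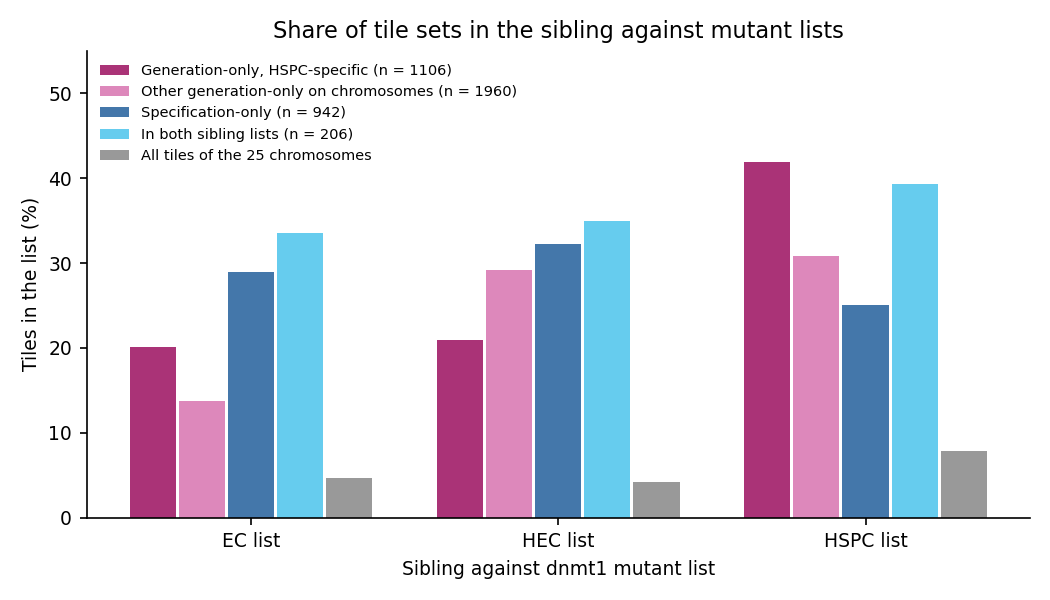
Percent of each set of tiles (y axis) that was in the sibling against dnmt1 mutant list of ECs, HECs and HSPCs (x axis), with all tiles of the 25 chromosomes in grey. HSPC-specific generation-only tiles reached 42.0% in the HSPC list and 21.0% in the HEC list, whereas the other generation-only tiles had 30.8% and 29.2%.

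Most generation-only tiles were in few mutant lists. In total 1943 (60.3%) were in at least 1 mutant list, against 13.1% of all tiles of the chromosomes, and 1474 (45.7%) in exactly 1, against 9.94%. The remaining 1280 (39.7%) were in none, against 86.9%. By number, the HSPC list alone came first, with 790 tiles (24.5%, against 5.14% of all tiles). A further 481 tiles (14.9%, against 2.19%) were in the HEC list alone and 203 (6.30%, against 2.60%) in the EC list alone. Relative to all tiles the order was another one, with 6.81 times for the HEC list alone, 4.77 for the HSPC list alone and 2.42 for the EC list alone. For the generation-only tiles on chromosomes these ratios were 6.66, 4.82 and 2.45. Of the tiles in more than 1 list, 164 were in those of HECs and HSPCs (5.09%, against 1.09%), 152 in those of ECs and HECs (4.72%, against 0.484%) and 103 in those of ECs and HSPCs (3.196%, against 1.20%). All 3 lists held 50 tiles (1.55%, against 0.411%). Among the HSPC-specific tiles, 352 (31.8%) were in the HSPC list alone and 368 (33.3%) in none. Among the other generation-only tiles on chromosomes, 408 (20.8%) were in the HSPC list alone, 343 (17.5%) in the HEC list alone and 838 (42.8%) in none.

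**Figure D3:**
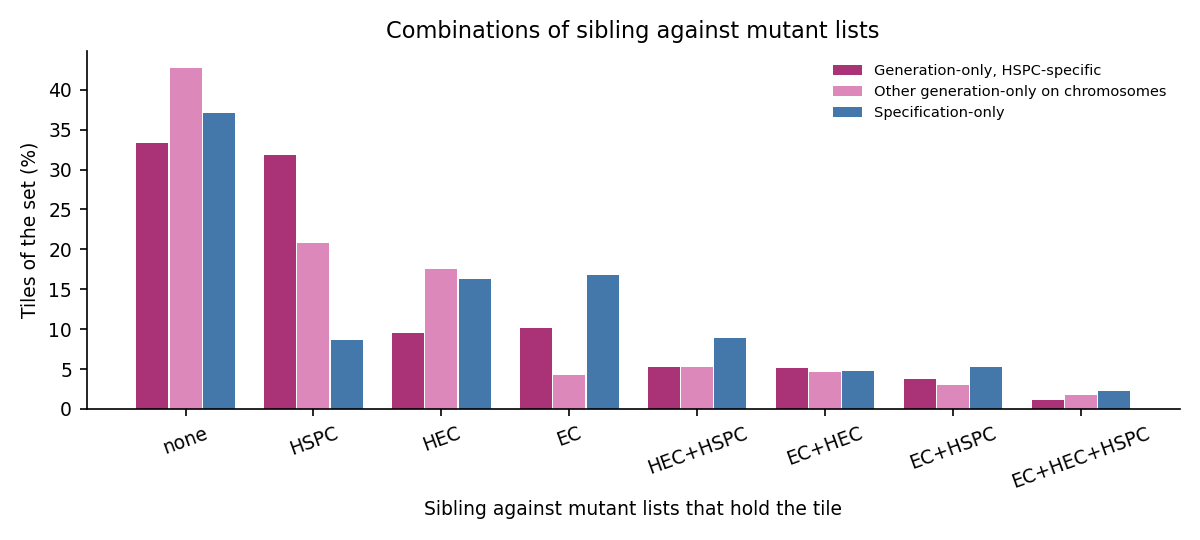
Percent of each set of tiles (y axis) by the combination of sibling against mutant lists that held them (x axis). The HSPC list alone held 31.8% of HSPC-specific, 20.8% of other generation-only and 8.70% of specification-only tiles.

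The share of generation-only tiles in the mutant list of 1 cell type differed with whether they were in that of another. Of the 508 generation-only tiles in the EC mutant list, 202 (39.8%) were also in the HEC mutant list, against 23.8% of the generation-only tiles outside the EC list. On chromosomes, the tiles in the EC list had the higher share on 22 of 25. The order was the opposite for HECs and HSPCs. Of the 847 tiles in the HEC mutant list, 214 (25.3%) were in the HSPC mutant list, against 37.6% of those outside the HEC list, and the share was lower for the tiles in the HEC list on 21 of 25 chromosomes. Likewise 153 of the 508 tiles in the EC list (30.1%) were in the HSPC list, against 35.1% of those outside, lower on 20 of 25 chromosomes. This last order held for the HSPC-specific tiles (24.2% against 46.4%). It was reversed for the other generation-only tiles on chromosomes (34.9% against 30.2%).

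Specification-only tiles had the opposite order for both pairs of neighbouring cell types. Of those in the EC mutant list, 24.2% were in the HEC list, against 35.6% of the specification-only tiles outside it, with the lower share on 20 of 25 chromosomes and an equal share on 1. Of those in the HEC list, 34.5% were in the HSPC list, against 20.5% of those outside, with the higher share on 19 of 25 chromosomes. Over all tiles of the chromosomes, tiles in 1 mutant list were in the others more often. There, 19.1% of tiles in the EC list were in the HEC list against 3.44% of the rest, and 35.9% of tiles in the HEC list were in the HSPC list against 6.62%. In the generation-only and in the specification-only tiles, then, being in the mutant list of one of the cell types whose comparison chose the set went with a lower share in the list of the other. Tiles in both sibling lists had this order for HECs and HSPCs (31.9% against 43.3%) and not for ECs and HECs (36.2% against 34.3%). Among all generation-only tiles the share was also lower for ECs and HSPCs, but among those on chromosomes that were not HSPC-specific it was higher. The choice of the tiles by those sibling samples and these orders cannot be told apart.

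Beyond the tile itself, the surroundings of generation-only tiles were listed somewhat more often than all tiles, 1.35 (HSPCs), 1.27 (HECs) and 1.24 (ECs) times as often between 5 and 20 kb. In the HSPC mutant list the share was 34.8% at the generation-only tiles on chromosomes, 14.6% in the adjoining tiles, 10.1% at 1 kb and 10.6% between 5 and 20 kb, beside 7.84% for all tiles. In the HEC mutant list these shares were 26.2%, 7.03%, 5.59% and 5.29%, beside 4.17%, and in the EC mutant list 16.05%, 7.99%, 5.71% and 5.83%, beside 4.69%. HSPC-specific and other tiles differed at the tile and hardly in the adjoining tiles, where the HEC list held 6.83% and 7.14% and the EC list 7.96% and 8.01%. In the HSPC list the adjoining tiles had 16.01% for HSPC-specific and 13.8% for other generation-only tiles.

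**Figure D4:**
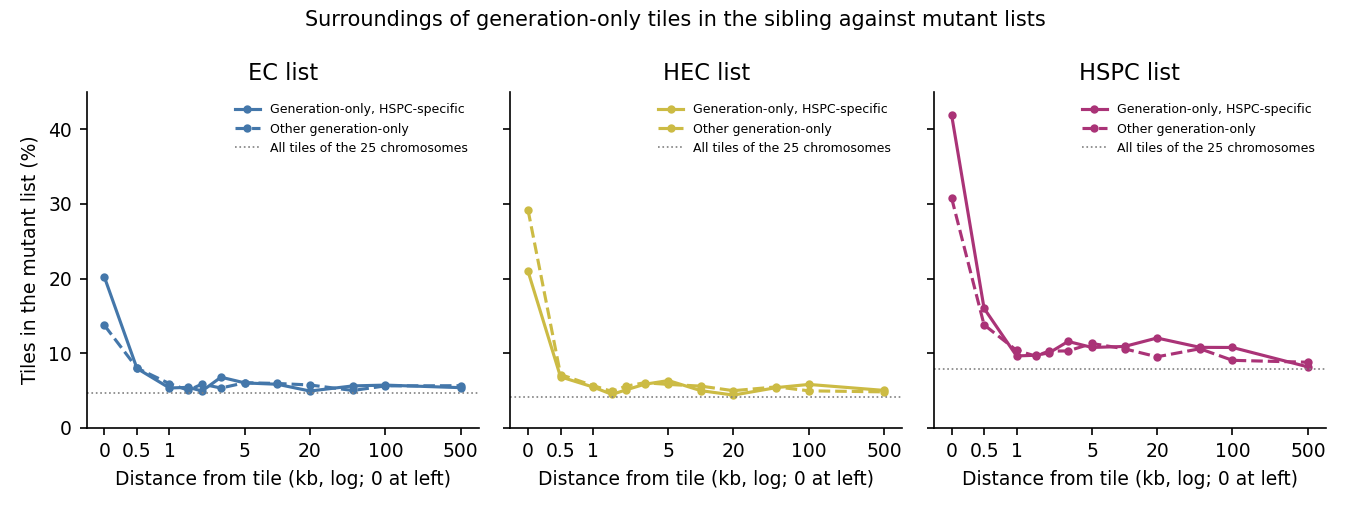
Percent of tiles in the sibling against mutant list of ECs, HECs and HSPCs (y axis) by distance from the generation-only tile (x axis, kb between tile starts, log scale with 0 placed at the left). Solid lines are HSPC-specific and dashed lines other generation-only tiles. In all 3 panels the share was highest at the tile itself and fell steeply within 1 kb. Beyond that it stayed somewhat above the dotted line for all tiles. In the HSPC list at 0, 0.5 and 1 kb it was 42.0%, 16.01% and 9.63% for HSPC-specific tiles. For the others it was 30.8%, 13.8% and 10.4%.

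Generation-only tiles in a mutant list were mostly single tiles of it. Runs of 2 or more adjacent listed tiles held 30.6% of the generation-only tiles in the HSPC list, against 34.9% of that whole list. In the HEC list the shares were 15.9% and 19.9%, and in the EC list 21.3% and 21.7%. Runs of 4 or more tiles held 1.90% of the generation-only tiles in the HSPC list against 4.46% of the list. The longest such run with a generation-only tile was chr9:173501-177500, 8 tiles that held the generation-only tile chr9:176001-176500, whereas the longest run of the HSPC list had 17 tiles. This run was named after its values were seen. Generation-only tiles that were not in the HSPC mutant list lay at a median of 1.5 kb from a tile of it, and the matching median was 3 kb for the EC and for the HEC list. Such a median depends on the length of the list, and the HSPC list was the longest. The medians for all tiles were not computed, so these values are no measure of closeness.

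The tiles of the EC and HEC comparison are few, so their distance from the generation-only tiles is mostly large. The median distance from a generation-only tile to the nearest tile of the EC and HEC list was 365 kb. At short range they were above the share of all tiles. Of the tiles adjoining a generation-only tile, 0.228% were in the EC and HEC list, 5.78 times the 0.0395% of all tiles, and between 5 and 20 kb the ratio was 1.44. In numbers, 14 generation-only tiles adjoined such a tile. By the distance between tile edges, 20 lay within 1 kb and 97 (3.16%) within 10 kb. Both comparisons use the sibling HEC samples.

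By chromosome, generation-only tiles were densest on chromosomes 19 (144 tiles, 2.97 per Mb, 95% Poisson interval 2.51 to 3.50), 15 (142 tiles, 2.96 per Mb, 2.49 to 3.48) and 22 (106 tiles, 2.71 per Mb, 2.22 to 3.28). They were sparsest on chromosomes 18 (83 tiles, 1.63 per Mb, 1.30 to 2.02), 4 (135 tiles, 1.73 per Mb, 1.45 to 2.05) and 5 (128 tiles, 1.77 per Mb, 1.47 to 2.099). The intervals cover counting error only and treat the tiles as independent. The counts in windows of 1 Mb vary more than such intervals allow for, and the 6 chromosomes were picked as the extremes of 25, so the intervals do not test the order.

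Part of this order was also that of the mutant lists. Counted per tile in any mutant list instead of per Mb, relative to all chromosomes, chromosome 19 went from 1.30 to 0.992 and chromosome 4 from 0.759 to 1.04. Chromosome 22 stayed at 1.16 (1.19 per Mb) and chromosome 18 at 0.834 (0.714 per Mb), and the highest value was that of chromosome 23 at 1.17. Across the 25 chromosomes, the number of generation-only tiles per Mb went with the share of tiles in the mutant list of HSPCs (Pearson's r = 0.831, Spearman's rho = 0.740), of HECs (0.796 and 0.708) and of ECs (0.780 and 0.624). With specification-only tiles per Mb the values were 0.520 and 0.408. These are descriptions over chromosomes that share the same samples, the same coverage and, between some lists, the same calls.

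**Figure D5:**
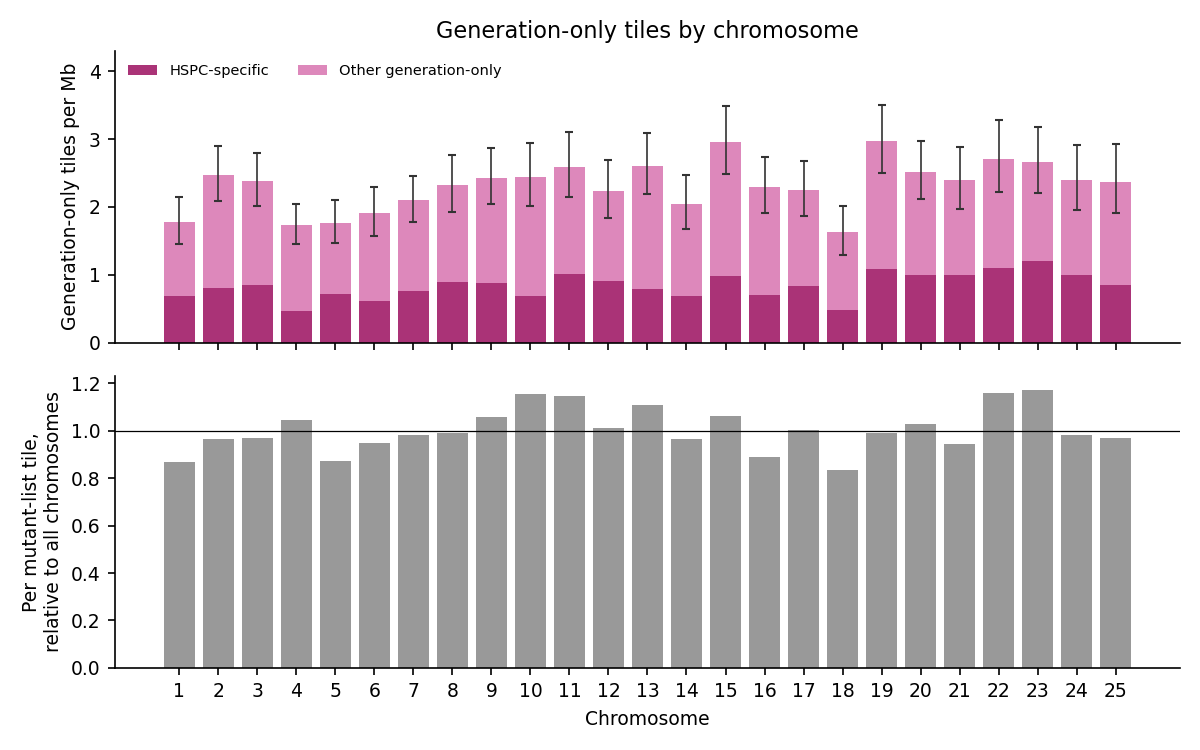
Generation-only tiles per Mb of each chromosome (upper panel, bars split into HSPC-specific and other tiles, error bars the 95% Poisson interval) and their number per tile in any mutant list relative to all chromosomes (lower panel). Chromosome 19 had 2.97 tiles per Mb but 0.992 per mutant-list tile, and chromosome 18 was low on both scales with 1.63 and 0.834.

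Along the chromosomes, with each span divided into 10 equal parts, 822 generation-only tiles (26.8%) were in parts 1 and 10 at the ends, and 759 (24.8%) in the central parts 4 to 6. In the mutant lists the end parts held 28.0% (ECs), 28.6% (HECs) and 29.1% (HSPCs). Chromosome 4 was uneven. Its parts 1 to 3 held 71 generation-only tiles (3.03 per Mb) and its part 10 held 19, whereas parts 5 to 9 together held 34 (0.871 per Mb). Tiles of the HSPC mutant list had the same unevenness there, with 184 per Mb in parts 1 to 3 and 57.6 per Mb in parts 5 to 9.

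Generation-only tiles were spread along the chromosomes, with close neighbours more often than the share of all tiles. The median distance to the nearest other generation-only tile was 96.5 kb (quartiles 28 and 243.5 kb, at most 2649.5 kb). Their density was 1 tile per 439 kb of span on average. This is not a distance to the nearest tile, so it is no measure of how close the tiles lie. Of the tiles adjoining a generation-only tile, 1.34% were in the HEC and HSPC list, 11.1 times the 0.121% of all tiles, and between 5 and 20 kb the ratio was 2.11. Within 100 kb of another one lay 1555 tiles (50.7%) and within 10 kb 380 tiles (12.4%). Specification-only tiles, which are fewer, had a median of 476.5 kb. Of 1361 windows of 1 Mb, 267 (19.6%) held none, the median was 2 and the mean 2.25, with a variance of 3.86, and 20 windows held 8 or more.

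Adjacent generation-only tiles formed 37 pairs on 20 chromosomes, and there was no run of 3 or more. In 17 pairs both tiles were HSPC-specific, in 8 pairs 1 was and in 12 pairs none was. Thus 56.8% of paired tiles were HSPC-specific, against 36.1% of all generation-only tiles on chromosomes. Both tiles were in the HSPC mutant list in 7 pairs, for example chr5:55043501-55044500, and 1 tile was in 17 pairs. The EC mutant list held both tiles of 1 pair, chr3:48528501-48529500. The HEC mutant list held both tiles of none and 1 tile of 13 pairs. Of the paired tiles, 41.9% were in the HSPC, 18.9% in the EC and 17.6% in the HEC mutant list. The shares of all generation-only tiles on chromosomes were 34.8%, 16.05% and 26.2%. The regions named in this paragraph were picked after their values were seen.

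The window with the most generation-only tiles was chr22:18000001-19000000, with 12 tiles between 18049501 and 18808500. Of these, 6 were HSPC-specific, 9 were in the HSPC mutant list, 4 in the HEC list and 1 in the EC list. Of all tiles of the window, 12.65%, 6.05% and 7.05% were in the HSPC, HEC and EC mutant lists. A second dense window of the same chromosome, chr22:13000001-14000000, held 11 tiles, 3 of them HSPC-specific. Of these 11, 5 were in the HSPC, 3 in the HEC and 1 in the EC mutant list. Those lists held 11%, 5.8% and 6.4% of all tiles of that window.

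The window chr5:71000001-72000000 held 11 tiles, of which 5 were HSPC-specific and 7, 1 and 1 were in the HSPC, HEC and EC mutant lists. These lists held 10.8%, 5.3% and 6% of all tiles of the window. In chr13:30000001-31000000 there were also 11 tiles, with 3 HSPC-specific, 8 in the HSPC mutant list, 1 in the EC list and none in the HEC list. Of all tiles of that window, 10.35%, 6.15% and 6.8% were in the HSPC, EC and HEC lists. The window chr15:3000001-4000000 had 10 tiles and the most HSPC-specific ones of these windows, 8. Of its 10 tiles, 4 were in the HSPC mutant list, which held 15.5% of all tiles of the window. It included the adjacent pair chr15:3325001-3326000, both tiles of which were HSPC-specific and in no mutant list.

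Of the 50 generation-only tiles in all 3 mutant lists, 47 were on chromosomes and 12 were HSPC-specific, on 8 chromosomes. All 3 lists thus held 1.08% of the HSPC-specific tiles and 1.79% of the other generation-only tiles on chromosomes. None of these 12 adjoined another generation-only tile, and they were chosen for naming after their values were seen. They were chr1:51180001-51180500, chr2:21764501-21765000, chr2:57495001-57495500, chr3:15034501-15035000, chr3:20938501-20939000, chr3:34186501-34187000, chr10:13620501-13621000, chr17:29893001-29893500, chr20:3633001-3633500, chr20:13499501-13500000, chr21:3133501-3134000 and chr25:37501501-37502000. The closest to another generation-only tile was chr3:34186501-34187000, at 8 kb, and the farthest was chr25:37501501-37502000, at 263.5 kb.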

How the data were processed

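For WGBS, the authors trimmed reads with Trim Galore 0.6.6, aligned them to GRCz11 with BS-Seeker2 2.1.8, removed PCR duplicates with SAMtools 1.11, and compared methylation levels over tiles of 500 bp at CpG sites recovered in both groups. They deposited coordinates of called tiles, 1 list per comparison with its 3 replicates per group combined. For RNA-seq, the deposited counts came from cutadapt 1.18, HISAT2 2.2.1 and HTSeq 0.12.4 and were not normalized. Reads given to no gene, 45.8% of all, were left out of library totals. The authors' tables of expression fold changes and promoter methylation changes for selected genes hold their own comparisons and were not used.

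Here tiles were taken as 1-based and matched between lists by chromosome, start and end in Python 3.11.15 with numpy 2.4.6 and scipy 1.17.1. The overlap, run and distance functions were tested on simulated data. Distances to the nearest tile, and the numbers of tiles within a distance, were measured between tile edges. Shares at a distance, such as those between 5 and 20 kb, and the alternative of tiles within 1 kb were measured between tile starts. The span of a chromosome ended at the last tile of any list. Plots were drawn with matplotlib 3.10.9. Alternatives were adjacent tiles or tiles within 1 kb counted as shared, chromosomes only, leaving out chromosomes, merging adjacent tiles and tiles in any mutant list as the denominator of density. Named regions were runs of 3 or more generation-only tiles (none found), the 5 windows of 1 Mb with the most of them, HSPC-specific tiles in all mutant lists that lay in a run (none found) and the 3 densest and 3 sparsest chromosomes. Regions outside this rule are marked as such. The set of tiles, the gene lists and the comparisons were chosen with earlier results of these data known. CpG content, gene overlap and the expression of genes with a tile at the promoter, which need GRCz11 sequence or gene positions, were not analysed here, and no test across samples was run.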

Additional observations from a re-analysis of the deposited data

How the results depend on the processing

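The number of generation-only tiles was 3208 when tiles adjoining a tile of the EC and HEC list were dropped. It was 3205 when those within 1 kb of one, measured between tile starts, were dropped. It was 3066 on chromosomes only and 3186 regions after merging adjacent tiles. The share in the HSPC-specific list was 36.1% on chromosomes only. When a mutant-list tile that adjoined counted as shared, the shares were 27.1% (EC), 35.5% (HEC) and 50.3% (HSPC). Within 1 kb between tile starts they were 34.3%, 41.5% and 58.0%. By construction these shares can only be higher. The shares of all tiles under these wider matches were not computed, so the exact-match shares of all tiles given above are no baseline for them. The densities relative to all chromosomes moved to 0.992 (chromosome 19), 1.06 (chromosome 15) and 1.04 (chromosome 4) with mutant-list tiles as the denominator. The other 30 alternative values, those without chromosome 4 and with merged tiles among them, stayed within the 95% interval of the share or density or within 1.5 times the number or distance. Leaving out each chromosome in turn gave 33.9% to 34.6% for the HSPC-specific list and 15.5% to 16.01%, 25.8% to 26.6% and 33.9% to 34.7% for the EC, HEC and HSPC mutant lists. The median distance to the nearest generation-only tile was 91.5 kb with tiles of both stages added and 101 kb after merging.

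No paired analysis was possible because the lists hold calls made on all samples of both groups and no value per sample. For the same reason no replicate was left out. The alternative settings for the expression of genes with a tile at the promoter (RLE size factors, a replicate block, other tools, no filter and leaving out libraries) were not run. Without coverage the depth behind a call is unknown.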
